A study of Homo sapiens with 4 samples.

Results

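The genes described here encode proteins that write, read and erase methylation of cytosine in CpG dinucleotides. They were taken by symbol from the authors' deposited table of H2O2-treated against untreated HCT116 cells. All 10 symbols of the set (DNMT1, DNMT3A, DNMT3B, UHRF1, UHRF2, MBD1, MBD2, TET1, TET2 and TET3) had a row among the 16376 genes listed. RNA-seq was made from poly(A)-selected RNA of HCT116, a human colon cancer cell line, in 2 untreated samples (Control) and 2 samples treated with hydrogen peroxide (H2O2), an oxidant that crosses membranes. Every sample is of the same line, and the labels give no other agent, no dose and no exposure time. The labels do not state if replicates were separate cultures, and p-values therefore reflect the spread between these samples, which may be technical.

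DNMT1 copies methylation onto the new DNA strand after replication, and UHRF1 brings it to hemimethylated sites. DNMT3A and DNMT3B place methylation on unmethylated DNA, MBD proteins bind methylated CpG and recruit corepressors, and TET dioxygenases oxidize 5-methylcytosine with iron and 2-oxoglutarate. In HCT116 cells DNMT1 and DNMT3B together are known to maintain most of the genome's methylation.

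The table holds group means, from which whole read counts of the 4 libraries were recovered, as the processing section describes. The recovered libraries held 6858809 to 7365032 reads over the listed genes. They carry no replicate number, so the larger library of a group is named the deeper one and the other the shallower, and normalized counts are reads divided by the authors' size factors. Directions rest on reading group A of the table as Control and group B as H2O2, which is the order in which its name lists them. Of 8 fixed markers of colon epithelium 7 had a row, with summed normalized counts of 7583 and 9020 in Control and 9421 and 9017 with H2O2, and CDX1 had none. Of the markers of other cell types, COL1A1, COL3A1 and PDGFRB had rows among 6 for fibroblasts, CD14 among those for immune cells and KDR among 4 for endothelium, while COL1A2, DCN, LUM, PTPRC, CD3E, LYZ, PECAM1, VWF and CDH5 had none. The 3 fibroblast markers summed to 1017 and 933 in Control and 813 and 754 with H2O2, COL1A1 being lower in the authors' deposited table (-0.45 on the log2 scale, adjusted p = 0.0211). CD14 was higher (1.87, adjusted p = 0.0270) at 4.79 and 3.08 against 18.3 and 10.4 normalized counts. The part of these markers in the results below was not tested.

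TET3, the most abundant TET transcript here, was the 1 member past the threshold of an adjusted p under 0.05 in the authors' deposited table, and it was lower with H2O2. Its mean fell to 0.745 of the Control mean there (-0.42 on the log2 scale, adjusted p = 0.0440). The other 9 members did not pass. Lower calls made up 4.62% of all listed genes and higher calls 2.58%, so 1 lower call among 10 members stands near the background. TET2, DNMT3A and DNMT3B had ratios of 0.737, 0.733 and 0.801 in the authors' deposited table, with adjusted p-values of 0.0847, 0.113 and 0.214. DNMT1 and UHRF1, the maintenance pair, had ratios of 0.998 and 0.995 there. In the authors' deposited table the median log2 fold change of the 10 members was -0.16, against 0.00029 over all listed genes. There 9 members lay below 0, DNMT1 and UHRF1 by only -0.0028 and -0.0068, and MBD2 above it. Over all listed genes 8185 lay below 0 and 8191 above. Among genes of mean at least 50, each class of exonic length from 4 kb up had a negative median, and every member but UHRF2 is that long. With bulk RNA, fewer cells that express a gene and less of its RNA per cell cannot be told apart.

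limma, fitted to the recovered libraries as log2(normalized count + 1), called none of the 10 members after Benjamini-Hochberg adjustment, where 2.58% of all genes were called lower. At an unadjusted p under 0.05 it gave 4, the same 4 as the authors' test (TET3, TET2, DNMT3A and DNMT3B), all lower. Genes lower at an unadjusted p under 0.05 made up 11.9% of the table in the authors' test and 11.7% in limma.

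**Figure D1:**
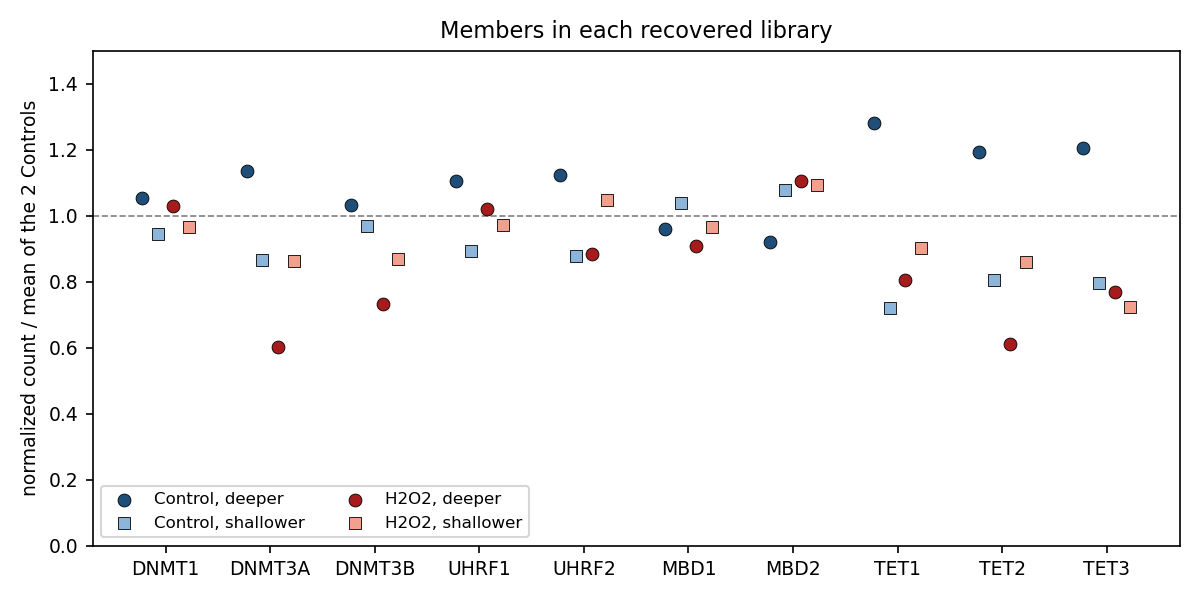
Normalized count of each member in the 4 recovered libraries, divided by the mean of the 2 Control libraries (y axis); dark circles are the deeper and pale squares the shallower library of each group, blue for Control and red for H2O2. For TET3 the deeper Control stands apart from the other 3 libraries, while the DNMT1 points lie close together around 1.

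The TET genes were read as follows. TET3 had 543 normalized counts in the deeper and 358 in the shallower Control, against 347 and 326 with H2O2. The groups did not overlap, but the shallower Control lay far closer to the H2O2 libraries than to the other Control. The Control libraries differed 1.52-fold from each other, which is 0.60 on the log2 scale with a counting error of 0.098. limma gave TET3 a log2 fold change of -0.39 ± 0.16 (SE, 2 libraries per group, adjusted p = 0.193). Without the deeper Control it was -0.093 (limma, adjusted p = 0.753), and without the shallower Control -0.69 (limma, adjusted p = 1.52e-06).

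TET2, which lacks the CXXC DNA-binding domain found in TET1 and TET3, had 254 and 171 normalized counts in the deeper and shallower Control and 130 and 183 with H2O2. The groups overlapped, since the shallower H2O2 library exceeded the shallower Control. Its log2 fold change in limma was -0.43 ± 0.20 (SE, 2 libraries per group, adjusted p = 0.243), and it was -0.15 without the deeper Control and -0.71 without the shallower. Leaving out the deeper H2O2 library gave TET2 -0.19, and leaving out the shallower H2O2 library gave -0.68 (limma, adjusted p = 0.852 and 0.0813).

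TET1 was the scarcest member, with 40 and 21 reads in the deeper and shallower Control and 25 and 26 reads with H2O2. The H2O2 libraries lay between the Controls. The exact 95% Poisson intervals of the counts, which cover counting error alone, ran from 28.6 to 54.5 and from 13.0 to 32.1 in Control and from 16.2 to 36.9 and from 17.0 to 38.1 with H2O2. The 95% interval of its fold change in limma reached from 0.553 to 1.44, so a change of moderate size was not detectable at this depth.

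Of the de novo methyltransferases, DNMT3A had 193 and 147 normalized counts in the deeper and shallower Control and 102 and 147 with H2O2. The shallower Control (146.8) and the shallower H2O2 library (146.7) were nearly equal, so the low mean rested on the deeper library of each group. limma gave DNMT3A a log2 fold change of -0.45 ± 0.20 (SE, 2 libraries per group, adjusted p = 0.212). It stood at -0.20 without the deeper H2O2 library, -0.26 without the deeper Control, -0.71 without the shallower H2O2 library (limma, adjusted p = 0.0806) and -0.65 without the shallower Control, where it passed (limma, adjusted p = 0.00510). Without the shallower Control 4 members passed (TET3, TET2, DNMT3A and DNMT3B), as did 11.6% of all genes in that direction, in a fit that takes its spread from the H2O2 libraries alone.

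DNMT3B, the other de novo enzyme, had 315 and 296 normalized counts in Control and 224 and 265 with H2O2. Both H2O2 libraries lay below both Controls, and the Controls differed 1.07-fold, less than the counting error of their ratio (0.093 against 0.12 on the log2 scale). On the log2 scale limma gave -0.32 ± 0.14 (SE, 2 libraries per group, adjusted p = 0.205). The value was -0.28 without the deeper Control and -0.37 without the shallower, and -0.20 and -0.45 without the deeper and the shallower H2O2 library. Of the 4 genes lower at an unadjusted p, DNMT3B moved least when a Control was left out. TET3 moved least when an H2O2 library was left out (-0.44 without the deeper and -0.35 without the shallower in limma).

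The maintenance enzyme DNMT1 was the most abundant member, with 2986 and 2679 normalized counts in Control and 2917 and 2737 with H2O2. The H2O2 libraries lay inside the range of the Controls. Its fold change in limma had a 95% interval from 0.849 to 1.18, which bounds a change in either direction.

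UHRF1 had 662 and 535 normalized counts in Control and 610.1 and 581 with H2O2, again inside the range of the Controls, with a 95% interval of the fold change from 0.832 to 1.20 in limma. UHRF1 is uncertain, because 23.0% of the 75-base words of its longest transcript also occur in transcripts of any other gene, most often AC112777.1. Its paralog UHRF2 had 244 and 191 normalized counts in Control and 192 and 228 with H2O2, and the groups overlapped (interval from 0.765 to 1.23). For the other members at most 0.164% of words were shared, and no member shared exonic bases with another gene of the annotation.

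Neither methyl-CpG reader passed. MBD1, whose CXXC fingers can also bind unmethylated CpG, had 616 and 667 normalized counts in Control and 583 and 619 with H2O2, and the groups overlapped. MBD2, which joins the NuRD corepressor complex, had 557 and 653 in Control and 668 and 661 with H2O2. MBD2 was the 1 member whose H2O2 libraries both lay above both Controls, and limma gave it a log2 fold change of 0.14 ± 0.12 (SE, 2 libraries per group, adjusted p = 0.531).

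In all, 3 members had H2O2 libraries below both Controls (DNMT3A, DNMT3B and TET3) and 1 had them above (MBD2). Over all listed genes the groups failed to overlap in 25.6% of cases downward and in 26.3% upward, so 3 and 1 of 10 are near the background.

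**Figure D2:**
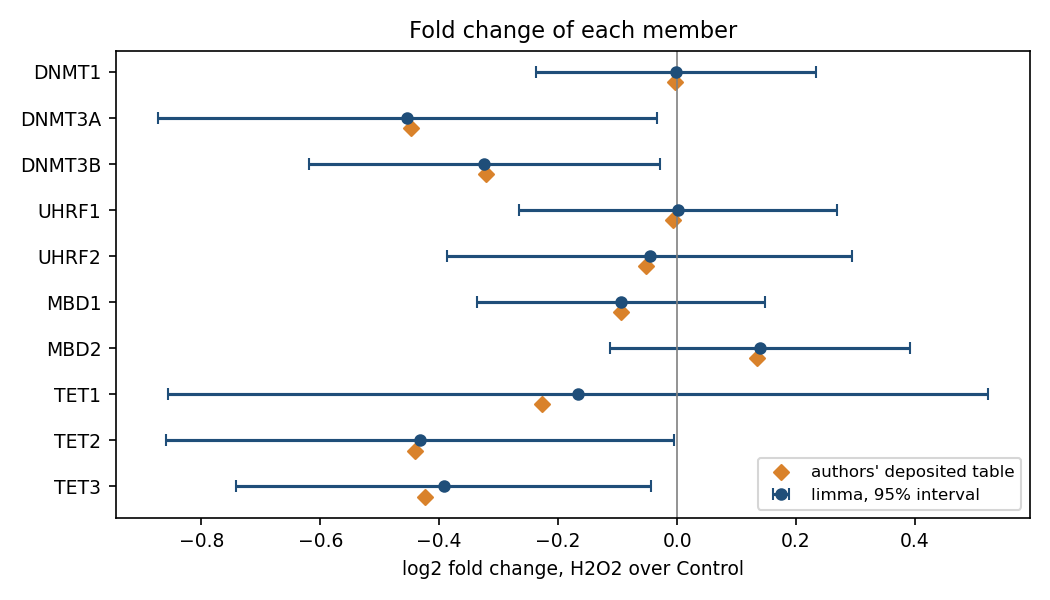
Log2 fold change of H2O2 over Control (x axis) for each member, with limma's estimate and 95% interval (blue circles and bars, 2 libraries per group) and the value in the authors' deposited table (orange diamonds). The intervals of DNMT3A, DNMT3B, TET2 and TET3 lie below 0 before adjustment for the number of genes, and the widest interval belongs to TET1.

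Exonic length, taken over all annotated exons of a gene, moved with these values. Among genes of mean at least 50, the median log2 ratio of H2O2 over Control in the authors' deposited table went from 0.15 for the 1838 genes of under 2 kb of exonic length to -0.30 for the 634 genes of 10 kb or more. The longest class had 24.0% of its genes called lower and none called higher in the authors' deposited table, against 2.83% and 3.37% of the shortest class. TET2 (15.7 kb), TET3 (11.5 kb) and DNMT3A (10.7 kb) belong to the longest class, TET1 has 9.29 kb, and the other 6 members lie between 3.80 and 5.92 kb. The longest single transcript has 10166 bases for TET2, 11388 for TET3 and 9501 for DNMT3A. By that measure DNMT3A would fall short of 10 kb, and classes of transcript length were not formed.

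The Control libraries differed from each other along length too. The median log2 ratio of the deeper over the shallower Control was -0.17 for genes under 2 kb and 0.29 for genes of 10 kb or more, and between the H2O2 libraries it was 0.018 and -0.076. For genes of 10 kb or more the H2O2 mean stood at a median of -0.083 relative to the shallower Control and -0.45 relative to the deeper. In that class 48.1% of genes were lower at an unadjusted p under 0.05 in the authors' test, as TET2, TET3 and DNMT3A were. DNMT3B belongs to the class of 4 to 6 kb, where the median log2 fold change was -0.046 and 12.7% of genes were lower at that level.

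After each library's trend over exonic length was subtracted, an alternative chosen after seeing the data, limma gave log2 fold changes of -0.16 for TET3, -0.13 for TET2 and -0.23 for DNMT3A, with adjusted p-values of 0.523, 0.701 and 0.486. DNMT3B stood at -0.28 (limma, adjusted p = 0.215), and MBD2 stood at 0.22 (limma, adjusted p = 0.280). The size of each shift is set by exonic length alone. It was therefore large for TET2 (15.7 kb, -0.43 uncorrected) and small for DNMT3B (4.63 kb), whatever the response of either gene. Any effect of H2O2 that goes with length would be subtracted too.

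**Figure D3:**
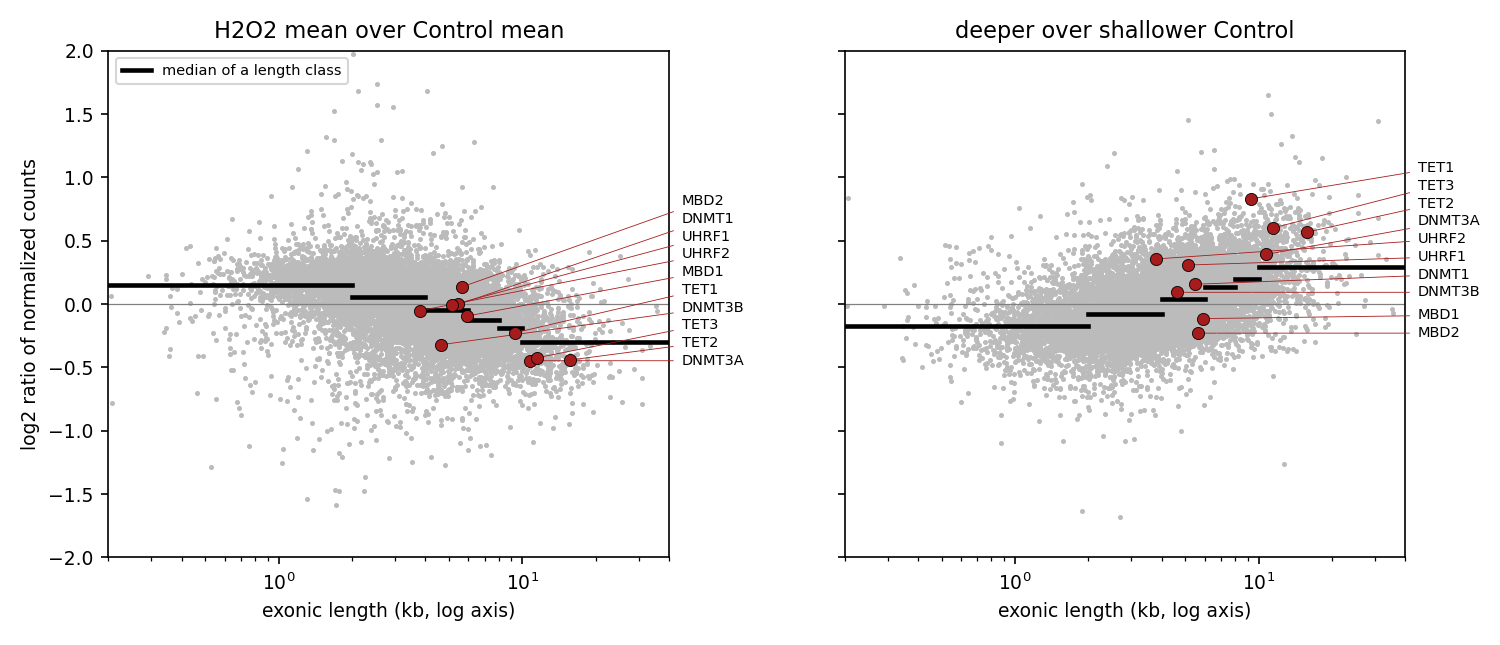
Log2 ratio of normalized counts (y axis) against exonic length in kb (x axis, log scale) for genes of mean at least 50 (grey), with the median of each length class as a black bar and the 10 members in red; points beyond the axis limits are not drawn. Left, H2O2 mean over Control mean; right, the deeper over the shallower Control. The medians fall with length on the left and rise on the right, and TET2, TET3 and DNMT3A lie at the long end of both.

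TET3, TET2, DNMT3A and DNMT3B were lower at an unadjusted p, and their promoter windows are therefore shown. Each window holds the 250 bases before the most upstream start that the RefSeq table used gives for the gene (GRCh38.p14). The CpG dinucleotides, the substrate of these enzymes, are in capitals.
TET3, chr2:73984660-73984909, plus strand: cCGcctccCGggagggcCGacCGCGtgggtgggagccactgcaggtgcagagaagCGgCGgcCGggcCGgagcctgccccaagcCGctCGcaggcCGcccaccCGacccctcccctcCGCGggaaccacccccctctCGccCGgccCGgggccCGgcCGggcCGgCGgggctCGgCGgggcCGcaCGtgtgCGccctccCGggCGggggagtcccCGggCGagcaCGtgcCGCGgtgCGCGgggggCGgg
TET2, chr4:105145625-105145874, plus strand: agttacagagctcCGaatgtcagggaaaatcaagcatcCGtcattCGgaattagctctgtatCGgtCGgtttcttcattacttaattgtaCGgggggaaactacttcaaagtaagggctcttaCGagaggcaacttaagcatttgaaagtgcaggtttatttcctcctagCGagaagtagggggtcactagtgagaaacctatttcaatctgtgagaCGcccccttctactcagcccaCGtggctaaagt
DNMT3A, chr2:25342591-25342840, minus strand: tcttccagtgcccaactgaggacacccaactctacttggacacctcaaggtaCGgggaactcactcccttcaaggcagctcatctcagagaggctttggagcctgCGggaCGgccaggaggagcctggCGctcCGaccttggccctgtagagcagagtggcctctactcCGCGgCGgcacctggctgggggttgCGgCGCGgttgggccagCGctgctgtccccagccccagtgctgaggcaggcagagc
DNMT3B, chr20:32779602-32779851, plus strand: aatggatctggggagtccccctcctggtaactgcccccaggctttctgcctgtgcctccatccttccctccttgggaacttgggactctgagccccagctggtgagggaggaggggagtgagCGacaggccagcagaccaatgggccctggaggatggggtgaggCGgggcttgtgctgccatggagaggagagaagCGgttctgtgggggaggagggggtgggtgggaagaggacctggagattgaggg

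These 4 windows differ widely in CpG content. RefSeq gives 6 starts for DNMT3A, 2 each for TET2 and TET3 and 1 for DNMT3B, so each count describes 1 window and not every start. GENCODE release 29 begins DNMT3B farther upstream, so its window lies inside that gene model, 17.2 kb from its start and outside its exons, and the count for DNMT3B describes this window and not every start of the gene. The windows of DNMT1 and UHRF1 also lie inside their GENCODE genes, 36.1 and 6.17 kb from the start, and those of TET3, TET2 and DNMT3A do not. TET3 had 37 CpGs, more than 96.1% of the 27326 promoters of that length, whereas DNMT3B had 3, TET2 10 and DNMT3A 12, and the median over all promoters was 10. The other 6 members had between 9 (TET1) and 28 (UHRF1). A search on both strands found the GC box GGGCGG in 4 of 10 members (TET3, MBD2, UHRF1 and UHRF2), against 42.2% of all promoters. CCAAT was found in DNMT3B and UHRF1 (33.0% of all promoters). The letters TTTCCCGC, a form of the E2F site, were found in UHRF1 alone (1.42% of all promoters). TGACNNNGC, the core of the NRF2 site, was also found in UHRF1 alone (11.1% of all promoters). TTTGGCGC and TATAAA were in none of the 10 windows, against 0.542% and 11.2% of all promoters. Such matches describe the letters of these windows and are not measured binding sites.

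Per kb of exonic length, DNMT1 led with a Control mean of 519 normalized counts per kb, followed by UHRF1 (116), MBD1 (108) and MBD2 (107). DNMT3B (66.0) and UHRF2 (57.3) came next, then TET3 (39.3), DNMT3A (15.8), TET2 (13.5) and TET1 (3.22). Over the 4 libraries the ranges of UHRF1, MBD1 and MBD2 overlapped in turn, as did those of DNMT3B and UHRF2 and those of DNMT3A and TET2. The other neighbours in this order were apart. With the length of the longest transcript in place of the exonic length, TET2 (20.9) stood above DNMT3A (17.9).

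**Figure D4:**
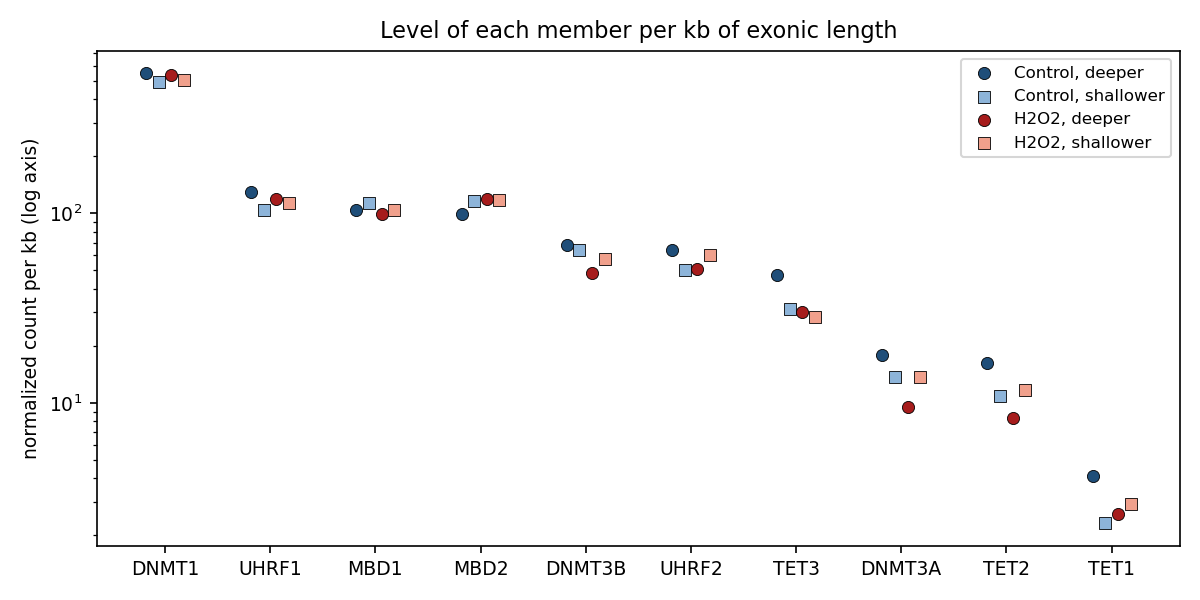
Normalized count per kb of exonic length (y axis, log scale) of the 10 members, ordered by Control mean, in the 4 libraries (blue for Control, red for H2O2, circles for the deeper and squares for the shallower library). DNMT1 stands well above UHRF1, MBD1 and MBD2, whose points overlap, and TET1 is lowest.

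Ratios of members inside a library do not depend on its size factor. They still carry any trend with exonic length, and DNMT3A, TET1, TET2 and TET3 are longer than DNMT1 (5.46 kb). The part of length in these ratios was not tested. DNMT3A and DNMT3B together had 17.0 and 16.5 reads per 100 DNMT1 reads in the deeper and shallower Control, and 11.2 and 15.1 with H2O2. Both Controls lay above both H2O2 libraries. The 3 TET genes had 23.9 and 17.7 reads per 100 reads of the 3 DNMT genes in Control, and 15.4 and 17.0 with H2O2, where the shallower Control lay close to the H2O2 libraries.

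UHRF1 had 22.2 and 20.0 reads per 100 DNMT1 reads in Control and 20.9 and 21.2 with H2O2, so the maintenance pair kept nearly the same proportion. MBD1 had 111 and 102 reads per 100 MBD2 reads in Control and 87.3 and 93.7 with H2O2, again without overlap. The other 3 ratios (UHRF1 to UHRF2, TET2 to TET3 and DNMT3A to DNMT3B) overlapped between the groups. Thus 3 of the 7 ratios formed did not overlap, all lower with H2O2 as formed. That direction depends on which gene is divided by which. The ratio of DNMT3A and DNMT3B to DNMT1 and that of TET to DNMT genes share genes, so they are not separate results. For single genes of the whole table the groups failed to overlap in 25.6% of cases downward and in 26.3% upward, and no such share was formed for ratios. The ratios were not tested, since an exact permutation test of 2 samples against 2 cannot give a two-sided p below 0.333.

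DNMT3A had the log2 fold change farthest from 0 among the members, and the genes of mean at least 50 with the most similar values over the 4 libraries were found by the Euclidean distance of centred log2 values. The nearest 5 of 12117 were CTD-2047H16.4 (0.083), ANK3 (0.087), RPS13 (0.091), RP11-1151B14.4 (0.097) and WDR52 (0.11). TET2 ranked 13 by this distance (0.13), DNMT3B 400, UHRF2 1616 and TET3 1718, and the other members with a mean of at least 50 came later. With 4 libraries such a distance describes these libraries and carries no test.

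The surrounding pathway held 8 calls, 4 higher and 4 lower, among 100 list genes by the test of the authors' deposited table, or 8.0% against 7.19% of all genes. The smallest adjusted p-values belonged to GADD45B and GADD45A. Of 14 listed genes of active demethylation, 3 were higher, 1 lower and 10 not past the threshold there, and the list's median was 0.13 on the log2 scale. The 3 that rose were GADD45A, GADD45B and GADD45G, stress-induced genes reported to take part in DNA demethylation as well as in growth arrest and stress kinase signalling.

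GADD45B had 182 and 221 normalized counts in the deeper and shallower Control and 495 and 508 with H2O2, a rise on the log2 scale of 1.32 ± 0.14 in limma (SE, 2 libraries per group, adjusted p = 6.34e-05). GADD45A had 612 and 780.1 in Control and 1190.2 and 1150.4 with H2O2, a rise of 0.76 ± 0.12 (limma, adjusted p = 0.00354). GADD45G was scarce, at 5.75 and 11.3 in Control and 22.2 and 28.1 with H2O2 (limma, adjusted p = 0.0475). For each of the 3 genes both H2O2 libraries lay above both Controls. With each library left out in turn, GADD45A and GADD45B passed in all 4 limma fits, whereas GADD45G passed without the shallower Control alone and had adjusted p-values of 0.114, 0.0777 and 0.213 in the other limma fits. The 3 genes have 1322 to 1558 exonic bases, in the class of under 2 kb, and after the length correction GADD45A and GADD45B stood at 0.64 and 1.20 on the log2 scale in limma (adjusted p = 0.00123 and 2.12e-05), while GADD45G, at 1.39, no longer passed (limma, adjusted p = 0.0555).

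OGT, the O-GlcNAc transferase that binds TET proteins, was the lower gene of that list. It had 2924 and 2119 normalized counts in Control and 1747 and 1975 with H2O2, or -0.44 on the log2 scale in the authors' deposited table (adjusted p = 0.0125), and it missed the threshold in limma (adjusted p = 0.101). Without the deeper Control OGT stood at -0.19 in limma (adjusted p = 0.163), and without the shallower at -0.65 (limma, adjusted p = 1.39e-12). TDG, a glycosylase that removes some of the products of TET, missed the threshold of the authors' deposited table (adjusted p = 0.743).

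Of 11 genes around the TET cofactor 2-oxoglutarate, D2HGDH, which clears D-2-hydroxyglutarate, was the 1 past the threshold. It had 504 and 483 normalized counts in Control and 297 and 318 with H2O2, a log2 difference of -0.68 ± 0.12 in limma (SE, 2 libraries per group, adjusted p = 0.0058). Its exonic length is 2617 bases, and the Controls were close together. D2HGDH stood between -0.63 and -0.73 on the log2 scale with each library left out, and missed the threshold when the deeper H2O2 library was left out (limma, adjusted p = 0.0740). The other 10, IDH1 and IDH2 among them, did not pass (list median 0.072 in the authors' deposited table).

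Of 13 genes of methyl donor supply, MTR, the methionine synthase, was lower in the authors' deposited table (-0.42 on the log2 scale, adjusted p = 0.0440) and 12 did not pass, with a median of 0.068. MTR has 10558 exonic bases, and its adjusted p in limma was 0.0977, or 0.233 without the deeper Control and 7.47e-05 without the shallower. After the length correction MTR stood at -0.19 in limma (adjusted p = 0.319). MAT2A and AHCY, which make S-adenosylmethionine and clear its product, missed the threshold of the authors' deposited table (adjusted p = 0.346 and 0.482).

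Of 13 partners of maintenance methylation, PCNA, the replication clamp that DNMT1 binds, was higher and DMAP1, a DNMT1-associated protein, lower in the authors' deposited table, and 11 did not pass (median 0.057). PCNA had 1001 and 1032 normalized counts in Control and 1340 and 1387 with H2O2 (limma, adjusted p = 0.0345), and it did not pass in limma after the length correction (adjusted p = 0.0650) or without either H2O2 library. DMAP1 had 443 and 432 in Control and 330.1 and 309 with H2O2, or -0.45 on the log2 scale in the authors' deposited table (adjusted p = 0.0345), and its adjusted p in limma was 0.0511, or 0.00834 after the length correction and 0.254 and 0.366 without the deeper and the shallower H2O2 library.

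None of 18 listed relatives of the members passed in the authors' deposited table, and limma called none. At an unadjusted p under 0.05, 4 were lower and none higher in the authors' test. At that level 11.9% of all listed genes were lower, and 20.3% of genes of mean at least 50 with 6 to 8 kb of exonic length. In the authors' deposited table the median log2 fold change of the relatives was -0.21. Their median exonic length in GENCODE was 6116 bases. In the recovered counts their median ratio of the deeper over the shallower Control was 0.17 on the log2 scale. The nearest to the threshold was MBD6, an MBD-domain gene with 479 and 501 normalized counts in Control and 410.3 and 322 with H2O2 (adjusted p = 0.0547 in the authors' deposited table, and 0.0873 in limma). BAZ2A followed, at -0.32 on the log2 scale in the authors' deposited table (adjusted p = 0.104).

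None of 11 NuRD subunits passed in the authors' deposited table, and limma called none. At an unadjusted p under 0.05, 1 was lower in the authors' test (CHD3, -0.28 on the log2 scale, adjusted p = 0.193), against 11.9% of all listed genes. In the authors' deposited table the median log2 fold change of the subunits was -0.054. GATAD2B was next by p there (adjusted p = 0.283).

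None of 20 genes of G1/S and S phase passed in the authors' deposited table or in limma. At an unadjusted p under 0.05, 4 were higher and none lower in the authors' deposited table, against 7.72% of all genes higher at that level, TYMS and CDT1 having the smallest adjusted p-values (0.0745 and 0.0932), and the median was 0.20. DNMT1 and UHRF1, whose transcripts also peak around S phase, stood at -0.0028 and -0.0068 on the log2 scale in the authors' deposited table. The median exonic length of the S phase genes was 3396 bases, in the class of 2 to 4 kb, whose median was 0.059.

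**Figure D5:**
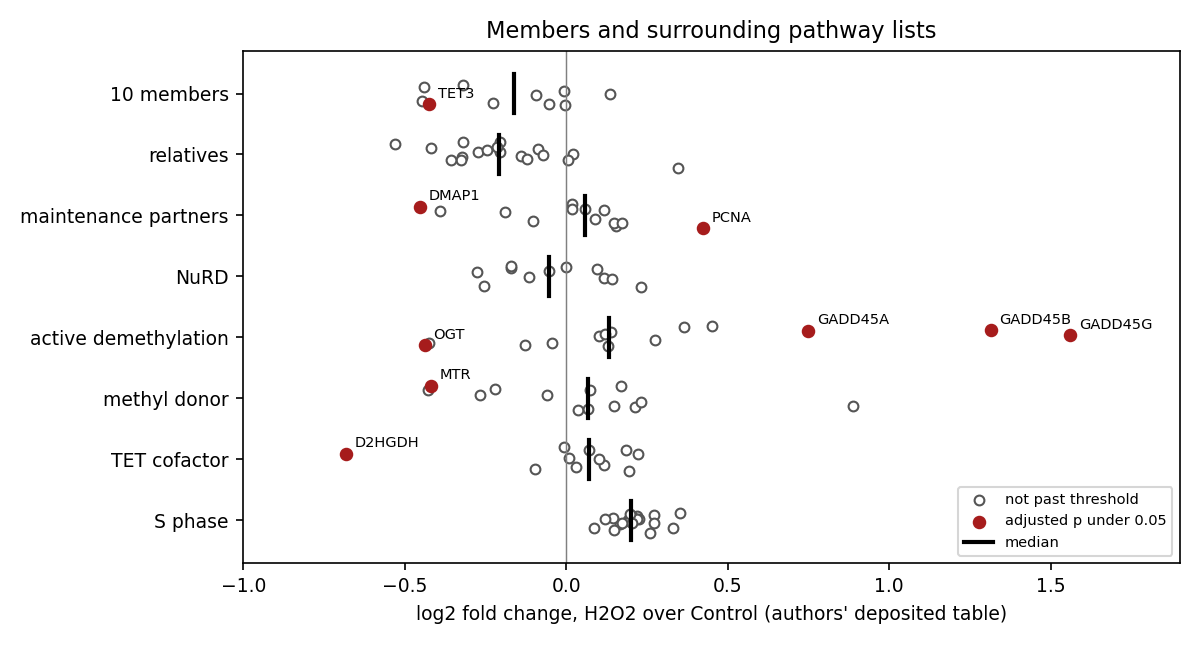
Log2 ratio of H2O2 over Control in the authors' deposited table (x axis) for the 10 members and the genes of 7 pathway lists; filled red points passed an adjusted p under 0.05 and are named, open points did not, and black bars are medians. GADD45A, GADD45B, GADD45G and PCNA are the 4 points that passed above 0, and TET3, DMAP1, OGT, MTR and D2HGDH those below.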

How the data were processed

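Poly(A) RNA-seq of 2 Control and 2 H2O2 samples of HCT116 cells was analysed from 1 deposited table. Build hg19 and the tools STAR, HTSeq, DESeq, Trim Galore, FastQC and CASAVA 1.8 are named, without roles, per the submitters' processing notes. The deposited mean columns hold a signal averaged over each group by the authors, per the file headers. That this signal is counts divided by size factors was inferred from the recovered counts. Size factors recomputed from those counts differed by at most 6.66e-16. The deposited fold column is a ratio of group means, and the deposited log2 column is its log2. The deposited p-value columns come from the authors' DESeq test, raw and adjusted, per the file headers and the table's name. The headers name no method of adjustment. Benjamini-Hochberg values recomputed from the raw ones differed from the adjusted ones by at most 2.05e-15.

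Each group mean was solved for 2 whole counts within 1e-09, with exactly 1 solution for all 16376 genes. log2(normalized count + 1) was fitted with limma 3.58.1 (R 4.3.3, trend option) on the whole table. Adjusted p-values in sentences that name limma are Benjamini-Hochberg values of that fit, and the main calls are the authors'. Both steps were tested on simulated data. The recovery returned 100% of the counts. limma found 64% of 1.5-fold changes and 100% of 2-fold changes, at a dispersion of 0.005 and with no trend over length. Smaller changes, such as those of the members, were not simulated, so a member not called by limma is not shown to be unchanged. The log2 values of limma understate changes of scarce genes.

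Lengths came from GENCODE release 29 (84.9% of genes matched, 82.2% of higher and 88.9% of lower calls) and promoters from RefSeq, both on GRCh38, another build than the table's, so coordinates refer to the promoters alone. Alternatives were other pseudocounts, scales, filters and thresholds and each library left out, with a length correction added after seeing the data. The members and lists were chosen with earlier results of these data known. Named genes are all members, every list gene past the threshold or otherwise the 2 of smallest p, and the 5 genes nearest to the member farthest from 0. TDG, IDH1, IDH2, MAT2A and AHCY are named for their roles, outside this rule. Protein sequences were not used here. Genes with an overall mean under 5.46 are not analysed here.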

Additional observations from a re-analysis of the deposited data

How the results depend on the processing

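Among the 10 members the authors' test called 1 gene, and also 1 when genes of mean under 50 were left out. It called 0 at an adjusted p under 0.01, and limma called 0 with the main settings, with a pseudocount of 4, with total counts as the scale and after the length correction, although 4 members had an unadjusted p under 0.05 in limma. With each library left out the count ranged from 0 to 4, the 4 appearing without the shallower Control, where 11.6% of all genes were called lower. Fits without a Control take their spread from the H2O2 libraries alone, and those without an H2O2 library from the Controls. Over all genes the authors' test called 1178, and 642 at the stricter threshold. limma called 671, 679 with the larger pseudocount, 669 with total counts, 721 after the length correction, and from 284 to 3641 with a library left out. The lists held 8 calls in the authors' test and 5 in limma, 5 after the length correction and from 2 to 34 with a library left out.

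Of 89 values of single members under an alternative, 67 kept their direction and their side of the threshold, 7 (all TET3) no longer passed, 3 newly passed without the shallower Control and 12 changed sign. The log2 fold change of UHRF1 was 0.0010 in limma, 0.00097 with the larger pseudocount and 0.064 after the length correction, that of DNMT1 0.074 and that of TET1 0.024 after that correction. With a library left out DNMT1 ranged from -0.080 to 0.077, UHRF1 from -0.15 to 0.16, UHRF2 from -0.22 to 0.13 and TET1 from -0.57 to 0.24. TET1 fell out of the filter at a mean of 50. The cause of these changes was not tested. No paired analysis was possible because the recovered libraries carry no replicate numbers. Counts limit what can be seen for TET1.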

Other observations

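Of 8 genes known to carry promoter methylation in HCT116 cells, TIMP3 and HIC1 had rows in the table. TIMP3, an inhibitor of metalloproteinases, had 70.0 and 78.0 normalized counts in the deeper and shallower Control and 81.1 and 69.7 with H2O2, and the groups overlapped. HIC1, a transcriptional repressor, had 5.75 and 11.3 in Control and 11.6 and 12.5 with H2O2. Both H2O2 libraries of HIC1 lay above both Controls, as in 26.3% of all listed genes. This rests on 6 and 11 reads in Control and 12 and 12 with H2O2. Neither passed in the authors' deposited table (adjusted p = 0.992 and 0.687). SFRP1, SFRP2, SFRP5, GATA4, GATA5 and UCHL1 are not analysed here.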
